A study of Sus scrofa with 9 samples.

Results

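Amino acids cross the membranes of liver cells through carriers of several protein families, and this account follows the transcripts of 6 of them, SLC1, SLC3, SLC7, SLC36, SLC38 and SLC43, in the livers of pigs with a mutated insulin gene. A gene was taken as a member if its symbol named one of these families and its reads summed to at least 50 over the 9 livers, which 28 of 40 such symbols met, out of 29837 symbols in the table. The tissue came from 4 MIDY and 5 wild type (WT) animals, every one a female aged 2 years. The name MIDY refers to a diabetes of youth caused by mutant insulin, and the animals carry an INS transgene with the C94Y exchange, whose promoter the labels do not state. The labels state that diabetic animals were given short- and long-acting insulin, so the transgene, diabetes and insulin treatment cannot be told apart. RNA was total liver RNA after ribosomal depletion, so the values are averages over all cells of the organ, in which fewer cells of a type and less RNA per cell cannot be told apart.

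System A carriers, members of the SLC38 family, bring alanine and other small neutral amino acids into the hepatocyte together with sodium, and system N carriers of the same family move glutamine, histidine and asparagine in either direction. In rats, system A uptake by liver is known to respond to glucagon and to insulin. Most SLC7 proteins are light chains that reach the membrane only when bound to a heavy chain of the SLC3 family, while the cationic carriers SLC7A1 and SLC7A2 work without one. SLC1 carriers move glutamate or small neutral amino acids, and several SLC36 carriers use protons or sit on lysosomes. Of the SLC43 carriers, SLC43A1 and SLC43A2 let large neutral amino acids pass down their gradient. SLC43A3 carries purine nucleobases in human cells and not amino acids.

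Depth was 14115415 to 19533463 counts per library. Levels are given as CPM, counts per 1000000 counts of the library after TMM scaling, which are not corrected for transcript length and therefore do not rank one gene against another. Total counts, scaling factor, genes detected and the share of RN18S did not differ between MIDY and WT beyond their spread (two-sided exact permutation, 126 splits, lowest p = 0.19, adjusted p = 0.754 over 4 measures, smallest p allowed 0.00794). On principal components of the 500 most variable genes, WT liver 2 stood apart on the second axis (25.2, against -10.99 to 4.12 in the MIDY livers and -9.72 to 3.90 in the other WT livers), and WT liver 1 lay nearest to the MIDY livers on the first. All 10 hepatocyte markers were tested. edgeR called 0 of them, with 1 at an unadjusted p below 0.05 (16.1% over all genes), DESeq2 called 1 (CPS1) and limma voom 0. Over all genes edgeR called 1.17%, DESeq2 4.53% and limma voom 1.62%. The summed level of the hepatocyte markers was 154011 to 184506 CPM in MIDY and 127805 to 184456 CPM in WT livers.

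None of the 27 transporters that passed the low-count filter was called different between MIDY and WT liver (edgeR quasi-likelihood test, Benjamini-Hochberg adjusted p over 14100 genes, threshold 0.05). Over all genes 1.17% were called, 0.816% higher and 0.355% lower, so a count of 0 among 27 is near what the background gives. At an unadjusted p below 0.05 there were 9 transporters, 7 with a log2 fold change above 0 (SLC38A3, SLC38A4, SLC38A10, SLC3A1, SLC7A5, SLC1A4 and SLC43A1) and 2 below 0 (SLC7A9 and SLC43A3). That is 33.3% of the tested transporters, where all genes gave 16.1% (8.15% above 0 and 8% below). The lowest adjusted p was 0.0734, for SLC43A3. DESeq2 on the same counts called 3 transporters, SLC3A1 higher and SLC7A9 and SLC43A3 lower, where it called 4.53% of all genes (2.52% higher and 2.01% lower), and limma voom called 0, where it called 1.62%.

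The fitted log2 fold changes had a median of 0.10 over the 27 transporters and of -0.0046 over all genes, and 15 transporters lay above 0 and 12 below. Their range was -1.34 (SLC43A3) to 1.43 (SLC43A1). For 20 of the 27 the 95% interval of the fold change lay within a 2-fold change in either direction, so that a larger change in those transcripts is outside the interval. In 4 transporters the MIDY and WT livers did not overlap, SLC38A4, SLC38A10 and SLC7A6 with all MIDY livers above all WT livers and SLC43A3 with all below. That is 14.8% of those tested, beside 6.35% of all genes (3.72% above and 2.63% below), but with scaling by total counts alone the number was 2, SLC38A10 and SLC43A3.

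**Figure D1:**
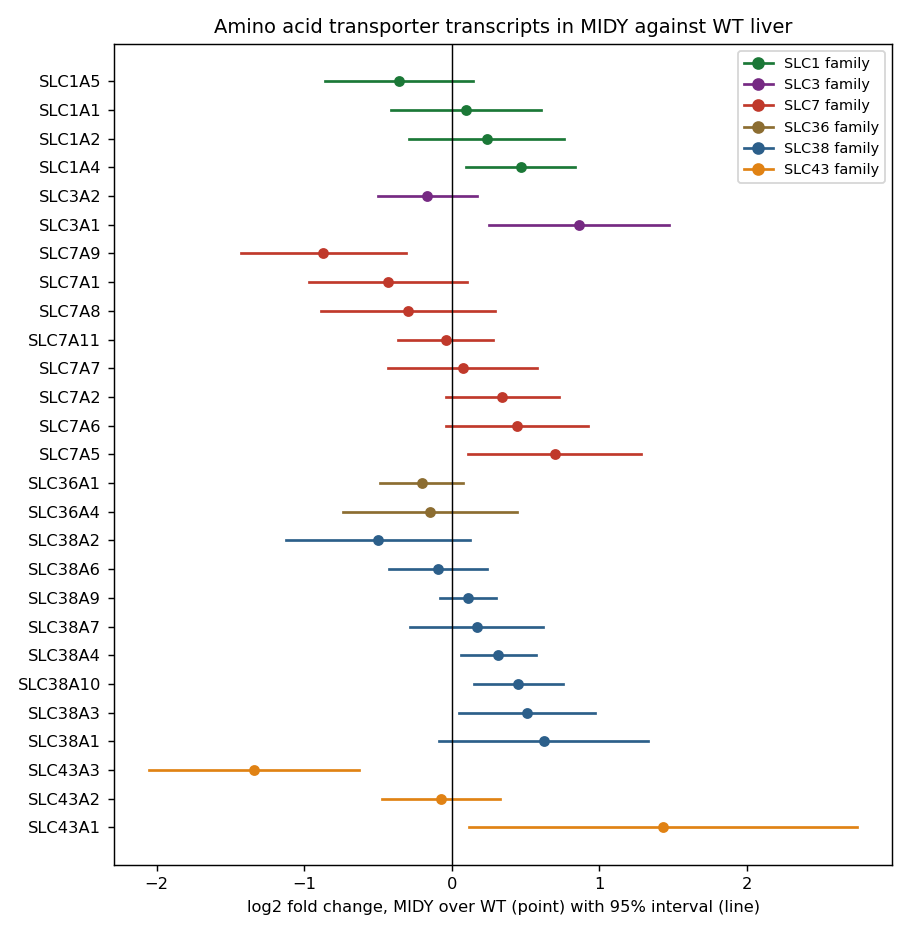
Each point is the edgeR log2 fold change of a transporter transcript, MIDY over WT, and each line its 95% interval, with 27 transporters grouped by family and ordered by fold change within it. The intervals of 18 transporters include 0, 7 lie above it and 2 below, all before adjustment over genes.

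Among the SLC38 carriers of the plasma membrane, all 4 MIDY livers lay above all WT livers for SLC38A4, and 3 of the 4 did for SLC38A3. For SLC38A2, 3 of the 4 lay below all WT livers, and none of these genes was called. SLC38A4 (SNAT4), a system A carrier of liver that lies at chromosome 5, 77411610 to 77489542 on Sscrofa11.1, had 1289, 1408, 1275 and 1286 CPM in the MIDY livers, against 933, 1061, 941, 1273 and 1074 CPM in the WT livers. Every MIDY liver lay above every WT liver, but by as little as the gap between MIDY liver 3 and WT liver 4. Its log2 fold change was 0.32 ± 0.12 (SE; edgeR adjusted p = 0.214). SLC38A2 (SNAT2), the widely expressed system A carrier that cells make more of when amino acids run short (chromosome 5, 77113491 to 77127715), had 366, 177, 195 and 158 CPM in the MIDY livers, against 250.3, 359.9, 201, 359 and 413 CPM in the WT livers. MIDY livers 2, 3 and 4 lay below the lowest WT liver while MIDY liver 1 lay above 4 of the 5. The log2 fold change was -0.50 ± 0.28 with a 95% interval of -1.12 to 0.12 (SE; edgeR adjusted p = 0.42), and it was -0.84 without MIDY liver 1.

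SLC38A1 (SNAT1), the other system A carrier, had 42.2, 37.5, 21.7 and 35.97 CPM in the MIDY livers, against 21.8, 39.7, 12.1, 20.9 and 16.7 CPM in the WT livers. MIDY livers 1, 2 and 4 were high, but WT liver 2 was as high as they were and MIDY liver 3 was at the level of WT livers 1 and 4. Its log2 fold change was 0.62 ± 0.32 (SE; edgeR adjusted p = 0.374). Without WT liver 1 and WT liver 2 it was 1.04 (adjusted p = 0.0915). The 3 system A genes are neighbours on chromosome 5, SLC38A1 and SLC38A2 36.8 kb apart and SLC38A2 and SLC38A4 284 kb apart, and their fitted values had different signs.

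SLC38A3 (SNAT3), the system N carrier through which hepatocytes take up or release glutamine (chromosome 13, 32683131 to 32699803), had 299, 425, 299.5 and 193 CPM in the MIDY livers, against 206, 161, 285, 191 and 225 CPM in the WT livers. MIDY livers 1, 2 and 3 lay above the highest WT liver, and MIDY liver 4 lay within the WT range. This gave a log2 fold change of 0.51 ± 0.21 (SE; edgeR adjusted p = 0.268). SLC38A5 (SNAT5), also of system N, summed to 55 reads over the 9 livers, just inside the limit of 50, and did not pass the low-count filter. It held 10, 4, 4 and 10 reads in the MIDY livers, against 1, 4, 3, 10 and 9 in the WT livers, and the groups overlapped. SLC36A2 fell just outside the limit with 48 reads.

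**Figure D2:**
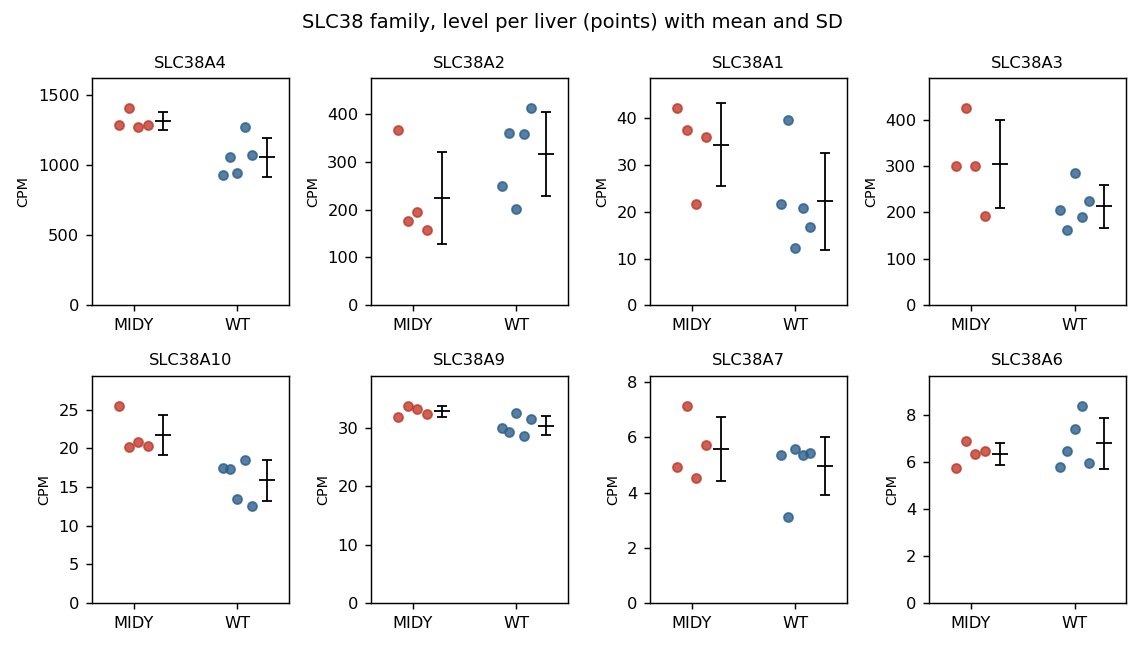
Level in CPM (vertical axis, from 0) of the 8 tested SLC38 transcripts in each MIDY liver (left, n = 4) and each WT liver (right, n = 5), with mean and SD beside the points. The groups do not overlap for SLC38A4 and SLC38A10, while for SLC38A2 MIDY liver 1 lies at 366 CPM among the WT livers.

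Of the remaining SLC38 members and the SLC36 carriers, SLC38A10 was nearest to a call. SLC38A10, a less well characterized carrier (chromosome 12, 1481245 to 1514499), had 25.5, 20.1, 20.8 and 20.2 CPM in the MIDY livers, against 17.5, 17.3, 13.4, 18.5 and 12.6 CPM in the WT livers. All MIDY livers lay above all WT livers, with MIDY liver 1 apart from the other MIDY livers. Its log2 fold change was 0.45 ± 0.14 (SE; edgeR adjusted p = 0.142, range 0.0779 to 0.262 over the alternatives). SLC38A9, the lysosomal arginine sensor that signals to mTORC1, had 31.9, 33.9, 33.3 and 32.4 CPM in the MIDY livers, against 29.97, 29.3, 32.6, 28.6 and 31.6 CPM in the WT livers. It varied least of all members, with a coefficient of variation of 2.73% in MIDY and 5.36% in WT livers. Counting error alone, from the mean reads of each group, gives 4.22% in MIDY and 4.47% in WT livers. The log2 fold change of SLC38A9, 0.11 ± 0.088, had a 95% interval of -0.078 to 0.30 (SE; edgeR adjusted p = 0.571). The span of SLC38A9 overlaps that of PLPP1, whose log2 fold change was -0.31 ± 0.15 (SE; edgeR adjusted p = 0.338), so its reads are uncertain.

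SLC38A7, which exports glutamine and asparagine from lysosomes, had 4.93, 7.15, 4.53 and 5.72 CPM in the MIDY livers, against 5.35, 3.10, 5.59, 5.36 and 5.42 CPM in the WT livers. Apart from WT liver 2, which was low, the WT livers were alike, and the MIDY livers spread to both sides of them (log2 fold change 0.17 ± 0.21, SE; edgeR adjusted p = 0.74). SLC38A6 ranged from 5.74 to 6.87 CPM in MIDY and from 5.77 to 8.38 CPM in WT livers (log2 fold change -0.096 ± 0.15, SE; edgeR adjusted p = 0.816). SLC36A1 (PAT1), which carries small amino acids with protons out of lysosomes, had 8.67, 10.5, 8.06 and 8.08 CPM in the MIDY livers, against 10.8, 9.59, 11.2, 9.33 and 9.94 CPM in the WT livers. MIDY livers 1, 3 and 4 lay below every WT liver and MIDY liver 2 among them, with a log2 fold change of -0.20 ± 0.13 (SE; edgeR adjusted p = 0.472). SLC36A4 (PAT4), a carrier of proline and tryptophan, had 3.12, 2.71, 4.16 and 5.82 CPM in the MIDY livers, against 3.27, 5.65, 3.38, 3.53 and 6.04 CPM in the WT livers, and the groups overlapped widely (log2 fold change -0.15 ± 0.27, SE; edgeR adjusted p = 0.85).

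Of the cationic carriers, which take up arginine, lysine and ornithine, SLC7A2 and SLC7A1 had fitted values of opposite sign and neither was called. SLC7A2 (CAT2), whose low-affinity form is the cationic carrier of mouse liver (chromosome 17, 5191973 to 5271849), had 999, 1093, 736 and 1003 CPM in the MIDY livers, against 1042, 654, 564, 695 and 819 CPM in the WT livers. WT liver 1 lay above 3 of the 4 MIDY livers and MIDY liver 3 among the WT livers. A log2 fold change of 0.34 ± 0.18 was fitted (SE; edgeR adjusted p = 0.366). SLC7A1 (CAT1), the widely expressed high-affinity form, had 3.99, 2.57, 2.90 and 2.94 CPM in the MIDY livers, against 2.64, 4.65, 3.31, 4.16 and 6.04 CPM in the WT livers. The groups overlapped, with WT liver 5 highest (log2 fold change -0.43 ± 0.25, SE; edgeR adjusted p = 0.42).

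The heavy chain SLC3A1 and its light chain SLC7A9 had fitted values of opposite sign and were the pair nearest to a call. SLC3A1 (rBAT) and SLC7A9 (b0,+AT) together form the cystine and dibasic amino acid exchanger of the kidney tubule, and human variants in either cause cystinuria. SLC3A1 (chromosome 3, 96157387 to 96201057) had 34.5, 45.7, 46.9 and 20.8 CPM in the MIDY livers, against 28.6, 17.4, 11.9, 20.2 and 23.4 CPM in the WT livers. MIDY livers 1, 2 and 3 lay above the highest WT liver, and MIDY liver 4 was at the level of WT liver 4. Its log2 fold change was 0.86 ± 0.28 with a 95% interval of 0.25 to 1.47 (SE; edgeR adjusted p = 0.168, DESeq2 adjusted p = 0.0386).

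SLC7A9 (chromosome 6, 42664795 to 42706113) was read at low depth, with 42, 20, 25 and 30 reads in the MIDY livers, against 48, 73, 43, 36 and 62 in the WT livers. On the scaled level it had 2.62, 1.39, 1.32 and 1.57 CPM in the MIDY livers, against 3.34, 3.65, 2.97, 2.27 and 3.50 CPM in the WT livers. MIDY livers 2, 3 and 4 lay below the lowest WT liver, and MIDY liver 1 was above 1 of the WT livers. The log2 fold change was -0.87 ± 0.26 with a 95% interval of -1.43 to -0.31 (SE; edgeR adjusted p = 0.127, DESeq2 adjusted p = 0.0453). Other gene models overlap both genes and the strand setting of the counting is not given in the sources used here, so both levels are uncertain. Of the 28 transporters 11 overlap another gene model, and in SLC1A1, SLC1A2, SLC36A1, SLC36A4, SLC38A1 and SLC38A4 no such model exceeded 3.04 CPM in any liver. SLC36A4 itself had only 2.71 to 6.04 CPM, and DEUP1, which overlaps it, reached 1.70 CPM in WT liver 2, so the level of SLC36A4 is also uncertain. PREPL, which overlaps SLC3A1, had a log2 fold change of 0.13 ± 0.11 (SE; edgeR adjusted p = 0.602), and TDRD12, which overlaps SLC7A9 and did not pass the low-count filter, had 1.06 ± 0.587 CPM in MIDY and 0.367 ± 0.172 CPM in WT livers (SD, n = 4 and 5).

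Within each liver the log2 ratio of SLC3A1 to SLC7A9, in which transcript length cancels between livers, was 3.72, 5.04, 5.15 and 3.72 in the MIDY livers, against 3.10, 2.26, 2.01, 3.15 and 2.74 in the WT livers. The ratio did not overlap between the groups and averaged 4.41 ± 0.80 in MIDY and 2.65 ± 0.51 in WT livers (SD, n = 4 and 5). It was looked at after the values of both genes were seen and is a description with no test. The log2 ratios of the other heavy chain, SLC3A2, to its light chains SLC7A5, SLC7A6, SLC7A7, SLC7A8 and SLC7A11 overlapped between the groups in all 5 pairs. In the pairs with SLC7A5 and SLC7A6, however, MIDY livers 2, 3 and 4 lay below the lowest WT liver.

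**Figure D3:**
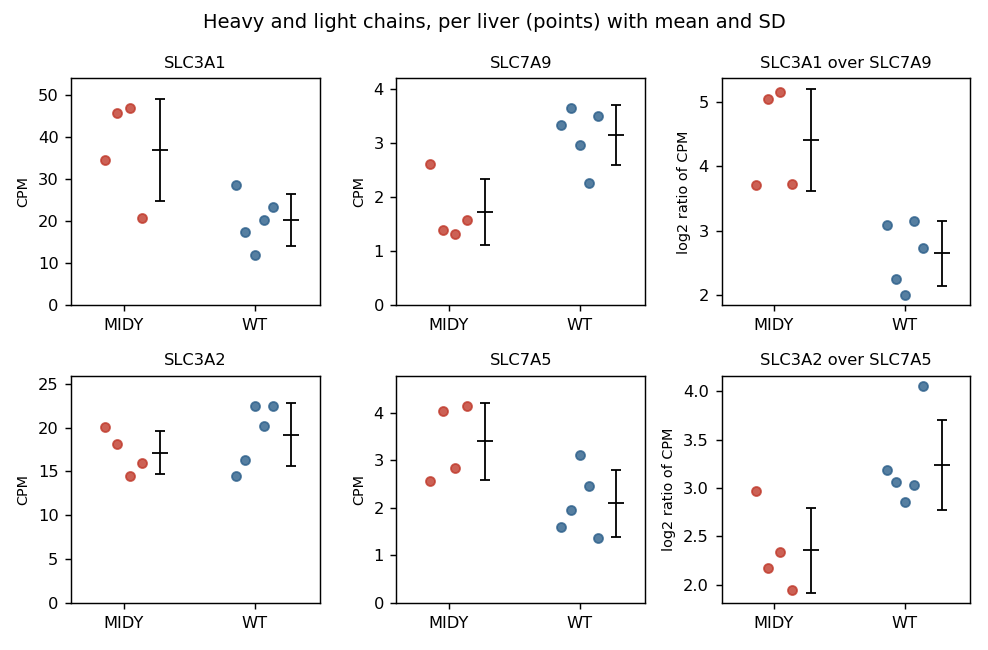
Level in CPM of the heavy chains SLC3A1 and SLC3A2 (left panels) and of the light chains SLC7A9 and SLC7A5 (middle panels), and the log2 ratio of heavy to light chain (right panels), in each MIDY liver (left, n = 4) and each WT liver (right, n = 5) with mean and SD. The lowest MIDY ratio of SLC3A1 to SLC7A9 is 3.72 and the highest WT ratio 3.15, while for SLC3A2 to SLC7A5 MIDY liver 1 at 2.97 lies within the WT range.

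SLC3A2 (4F2hc, also CD98) carries the light chains of large neutral amino acid exchange and of cystine uptake. It had 20.03, 18.1, 14.4 and 15.99 CPM in the MIDY livers, against 14.5, 16.3, 22.5, 20.2 and 22.5 CPM in the WT livers, and the MIDY livers lay within the WT range except for MIDY liver 3, just under it (log2 fold change -0.17 ± 0.15, SE; edgeR adjusted p = 0.645). SLC7A5 (LAT1), its partner for leucine and other large neutral amino acids, had 2.56, 4.03, 2.84 and 4.14 CPM in the MIDY livers, against 1.60, 1.95, 3.11, 2.46 and 1.36 CPM in the WT livers. MIDY livers 2 and 4 lay above the highest WT liver and the other 2 MIDY livers within the WT range. Its log2 fold change was 0.70 ± 0.27 (SE; edgeR adjusted p = 0.23). SLC7A5 is listed as a long non-coding RNA in the RefSeq table of Sscrofa11.1, so the gene model that was counted may be incomplete. SLC7A8 (LAT2), a second exchanger of neutral amino acids, had 6.68, 6.39, 4.53 and 4.46 CPM in the MIDY livers, against 7.23, 3.85, 11.04, 5.30 and 6.44 CPM in the WT livers. WT liver 3 was high, and the MIDY livers all lay within the WT range (log2 fold change -0.29 ± 0.27, SE; edgeR adjusted p = 0.64).

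The y+L exchangers swap cationic for neutral amino acids. SLC7A6 (y+LAT2) had 2.25, 2.64, 2.37 and 2.57 CPM in the MIDY livers, against 2.09, 2.10, 1.24, 1.70 and 1.86 CPM in the WT livers. All MIDY livers lay above all WT livers, though at 18 to 49 reads per library (log2 fold change 0.44 ± 0.22, SE; edgeR adjusted p = 0.35). The overlapping gene SLC7A6OS had a log2 fold change of 0.013 ± 0.15 (SE; edgeR adjusted p = 0.977). SLC7A7 (y+LAT1), also a carrier of macrophages, had 9.11, 14.6, 16.6 and 18.2 CPM in the MIDY livers, against 15.3, 8.99, 11.7, 14.6 and 19.04 CPM in the WT livers, and the groups overlapped throughout (log2 fold change 0.074 ± 0.23, SE; edgeR adjusted p = 0.915). The gene's span overlaps that of OXA1L, which averaged 79.1 ± 11.7 CPM in MIDY and 72.9 ± 9.11 CPM in WT livers (SD, n = 4 and 5), so the level of SLC7A7 is uncertain (log2 fold change of OXA1L 0.12 ± 0.13, SE; edgeR adjusted p = 0.699). Macrophage markers had a summed level of 842 to 1102 CPM in MIDY and 926 to 1326 CPM in WT livers. Of the 10, 2 had a fitted value above 0 and 8 below. edgeR called 0 of them, DESeq2 1 (MARCO, higher) and limma voom 0, beside 1.17%, 4.53% and 1.62% of all genes. At an unadjusted p below 0.05 edgeR had 4, 1 above 0 and 3 below, where all genes gave 16.1%. The part of these markers in SLC7A7 was not tested.

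SLC7A11 (xCT), the exchanger that brings in cystine for glutathione in return for glutamate, had 33.3, 31.4, 44.3 and 31.1 CPM in the MIDY livers, against 44.8, 29.9, 35.8, 30.3 and 39.4 CPM in the WT livers. MIDY liver 3 and WT liver 1 were high to the same extent, and the groups overlapped. Its fold change on the log2 scale was -0.039 ± 0.15 with a 95% interval of -0.36 to 0.28 (SE; edgeR adjusted p = 0.929). Together with SLC38A2, SLC3A2, SLC7A5, SLC7A1, SLC1A4 and SLC1A5, SLC7A11 is among the carriers known to be induced through ATF4, the transcription factor of amino acid shortage. This grouping was made after their values were seen. Of these 7, none was called, and their fitted values were above 0 for SLC7A5 and SLC1A4 and below 0 for the other 5.

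In the SLC43 family the neighbours SLC43A1 and SLC43A3, 54.6 kb apart on chromosome 2, had the largest fitted values above and below 0 among the transporters, and both were read at low depth. SLC43A3 (chromosome 2, 13490913 to 13514518), which in human cells carries purine nucleobases and not amino acids, held 10, 12, 8 and 14 reads in the MIDY livers, against 29, 36, 27, 15 and 29 in the WT livers. Its scaled levels were 0.624, 0.833, 0.421 and 0.734 CPM in the MIDY livers, against 2.02, 1.80, 1.86, 0.946 and 1.64 CPM in the WT livers. Every MIDY liver lay below every WT liver. Fitted over all livers, the log2 fold change was -1.34 ± 0.33 with a 95% interval of -2.05 to -0.63 (SE; edgeR adjusted p = 0.0734, DESeq2 adjusted p = 0.0139, range 0.0139 to 0.209 over the alternatives).

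The summed levels of T and NK cell markers and of neutrophil markers lay lower in every MIDY liver than in any WT liver. The levels of SLC43A3 and of 2.63% of all genes did so too. Some other list sums also did not overlap, with MIDY higher. Markers of hepatocytes near the portal vein summed to 7967 to 11589 CPM in MIDY and 5425 to 7662 CPM in WT livers. Amino acid and peptide carriers of other families summed to 283 to 338 CPM in MIDY and 206 to 268 CPM in WT livers. The summed level of 10 T and NK cell markers was 23.2 to 26.2 CPM in MIDY and 29.2 to 44.9 CPM in WT livers, where all 9 tested had a fitted value below 0 and 1, CD2, was called lower by edgeR and DESeq2 and 0 by limma voom. For 7 neutrophil markers it was 19.9 to 22.4 CPM in MIDY and 25.5 to 35.4 CPM in WT livers, with 4 of 4 tested below 0, 0 called by edgeR and limma voom and 2 by DESeq2 (CXCR2 and FCGR3A), and for 7 B and plasma cell markers 14.7 to 22.2 CPM in MIDY and 22.1 to 52.6 CPM in WT livers, with 3 of 3 below 0 and 0 called by any of these tools. For 10 stellate cell markers it was 284 to 403 CPM in MIDY and 379 to 643 CPM in WT livers, with 8 of 10 below 0 and a median log2 fold change of -0.79. edgeR and limma voom called 1 stellate marker lower, COL1A2, and DESeq2 called 3 lower, COL1A2, COL1A1 and ACTA2. For 8 endothelial markers the summed level was 800.1 to 882 CPM in MIDY and 785 to 929 CPM in WT livers, with 0 called by any of these tools. At an unadjusted p below 0.05 edgeR had 6 stellate, 3 T and NK cell, 2 neutrophil and 2 B and plasma cell markers, all below 0, and 3 endothelial markers, 2 of them below 0. Over all genes 16.1% had such a p, 8.15% above 0 and 8% below. At an adjusted p below 0.05 edgeR called 0.355% of all genes lower, DESeq2 2.01% lower and limma voom 1.62% in either direction. No marker of these 5 lists was at 0 in all libraries. Some other marker lists also held more fitted values below 0 than above. For bile duct cell markers 6 of 7 tested lay below 0, with a median log2 fold change of -0.51. Macrophage markers had 8 of 10 below 0 (median -0.28) and red blood cell markers 5 of 5 (median -1.15). edgeR called 0 in each of these lists, and their summed levels overlapped between the groups. The part of any of these cell types in SLC43A3 was not tested.

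SLC43A1 (LAT3), a facilitated carrier of branched-chain amino acids and phenylalanine (chromosome 2, 13407046 to 13436270), held 36, 86, 62 and 25 reads in the MIDY livers, against 39, 8, 4, 19 and 24 in the WT livers. Its scaled levels were 2.25, 5.97, 3.27 and 1.31 CPM in the MIDY livers, against 2.71, 0.400, 0.276, 1.20 and 1.36 CPM in the WT livers. MIDY livers 2 and 3 lay above the highest WT liver, and WT liver 1 lay above MIDY livers 1 and 4. Fitted over all livers, the log2 fold change was 1.43 ± 0.60 with a 95% interval of 0.12 to 2.75 (SE; edgeR adjusted p = 0.27), and it was 0.95 to 1.96 when single livers were left out. SLC43A2 (LAT4), which carries the same amino acids out of cells, had 32.2, 22.2, 22.4 and 19.8 CPM in the MIDY livers, against 19.3, 22.98, 27.5, 22.4 and 34.7 CPM in the WT livers, and the groups overlapped throughout (log2 fold change -0.072 ± 0.18, SE; edgeR adjusted p = 0.895).

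The glutamate and neutral amino acid carriers of the SLC1 family were not called either. SLC1A2 (GLT-1), which in rats is found in the hepatocytes around the central vein, had 54.2, 48.4, 34.98 and 32.5 CPM in the MIDY livers, against 49.8, 38.3, 22.3, 27.1 and 42.6 CPM in the WT livers. The groups overlapped, with MIDY liver 1 highest and WT liver 3 lowest (log2 fold change 0.24 ± 0.24, SE; edgeR adjusted p = 0.674). Of 13 markers of hepatocytes around the central vein, 5 had a fitted value above 0 and 8 below, with a median log2 fold change of -0.25. edgeR called 1 of them higher (TBX3) and 0 lower, beside 0.816% and 0.355% of all genes. limma voom also called TBX3 higher and 0 lower, beside 1.62% of all genes in either direction. DESeq2 called 2 higher (OAT and TBX3) and 2 lower (GLUL and RNF43), beside 2.52% and 2.01% of all genes. At an unadjusted p below 0.05 edgeR had 3 above 0 and 2 below, beside 8.15% and 8% of all genes. The part of these markers in SLC1A2 was not tested. SLC1A1 (EAAC1), a carrier of glutamate and cysteine, had 25.7, 19.9, 13.4 and 25.96 CPM in the MIDY livers, against 13.3, 21.5, 16.2, 27.9 and 20.3 CPM in the WT livers, with a log2 fold change of 0.096 ± 0.23 whose sign changed in 5 of 17 alternatives (SE; edgeR adjusted p = 0.888).

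SLC1A4 (ASCT1), an exchanger of alanine, serine and cysteine (chromosome 3, 76938102 to 76970519), had 9.48, 7.01, 7.90 and 10.2 CPM in the MIDY livers, against 7.09, 5.45, 7.39, 6.62 and 4.86 CPM in the WT livers. MIDY livers 1, 3 and 4 lay above the highest WT liver, and MIDY liver 2 below the WT livers 1 and 3. The fit gave a log2 fold change of 0.47 ± 0.17 (SE; edgeR adjusted p = 0.205). SLC1A5 (ASCT2), the glutamine exchanger of dividing cells, had 3.62, 1.87, 2.53 and 2.36 CPM in the MIDY livers, against 4.31, 2.90, 2.83, 3.53 and 3.11 CPM in the WT livers. MIDY livers 2, 3 and 4 lay below every WT liver and MIDY liver 1 among them, with a log2 fold change of -0.36 ± 0.23 (SE; edgeR adjusted p = 0.477).

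**Figure D4:**
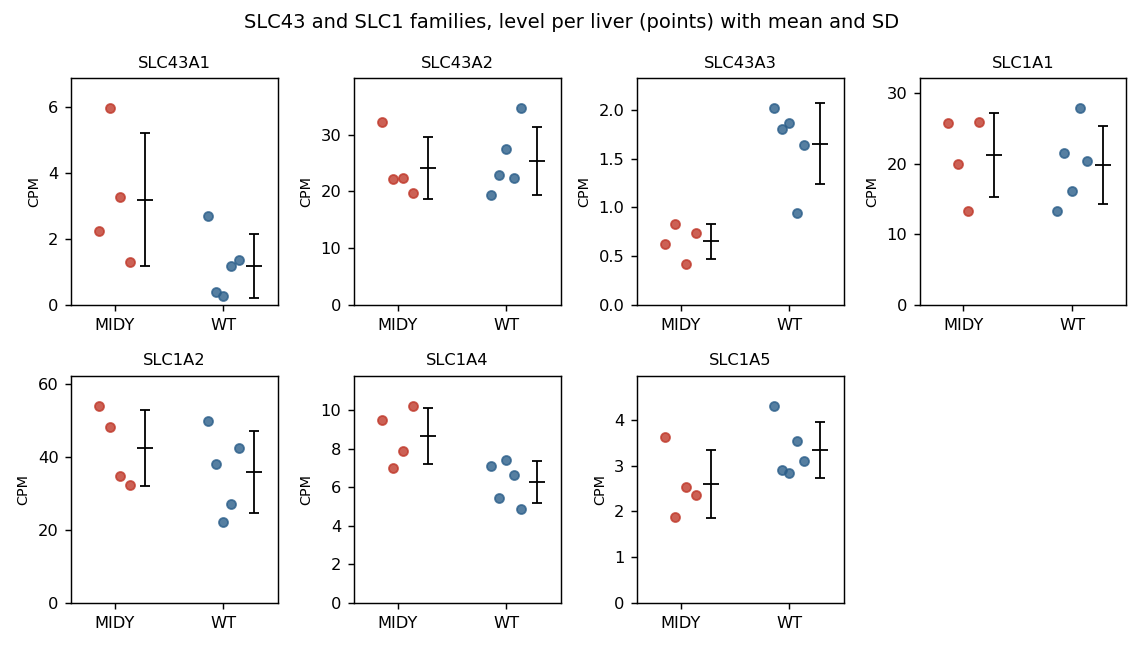
Level in CPM (vertical axis, from 0) of the SLC43 and SLC1 transcripts in each MIDY liver (left, n = 4) and each WT liver (right, n = 5), with mean and SD. SLC43A3 is the transcript whose MIDY livers, at 0.421 to 0.833 CPM, all lie below its WT livers, at 0.946 to 2.02 CPM.

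The transporters differed in how much they varied between livers of 1 genotype. SLC38A2 had a coefficient of variation of 42.9% in MIDY and 27.7% in WT livers, and SLC38A1 of 25.8% in MIDY and 47.1% in WT livers, where counting error alone, from the mean reads of each group, gives 1.63% in MIDY and 1.37% in WT livers for SLC38A2 and 4.16% in MIDY and 5.12% in WT livers for SLC38A1. For SLC43A1 it was 62.9% in MIDY and 82.1% in WT livers, with 13.8% in MIDY and 23.1% in WT livers from counting. SLC38A4 varied by 4.77% in MIDY and 13.0% in WT livers. SLC43A3 varied by 27.0% in MIDY and 25.3% in WT livers, where counting error alone gives 30.2% in MIDY and 19.2% in WT livers.

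For the 9 transporters with an unadjusted p below 0.05, those lying outside the WT range were counted in each MIDY liver. The 9 were picked on these same values, so the counts are a description and test no difference between livers. Of the 7 with a value above 0, MIDY livers 2 and 3 each lay above the highest WT liver in 6, MIDY liver 1 in 5 and MIDY liver 4 in 4. In MIDY liver 4 the exceptions were SLC38A3, SLC3A1 and SLC43A1, and in MIDY liver 1 they were SLC43A1 and SLC7A5. SLC38A4 and SLC38A10 were above the highest WT liver in all 4. Of SLC7A9 and SLC43A3, both lay below the lowest WT liver in MIDY livers 2, 3 and 4 and SLC43A3 alone in MIDY liver 1.

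**Figure D5:**
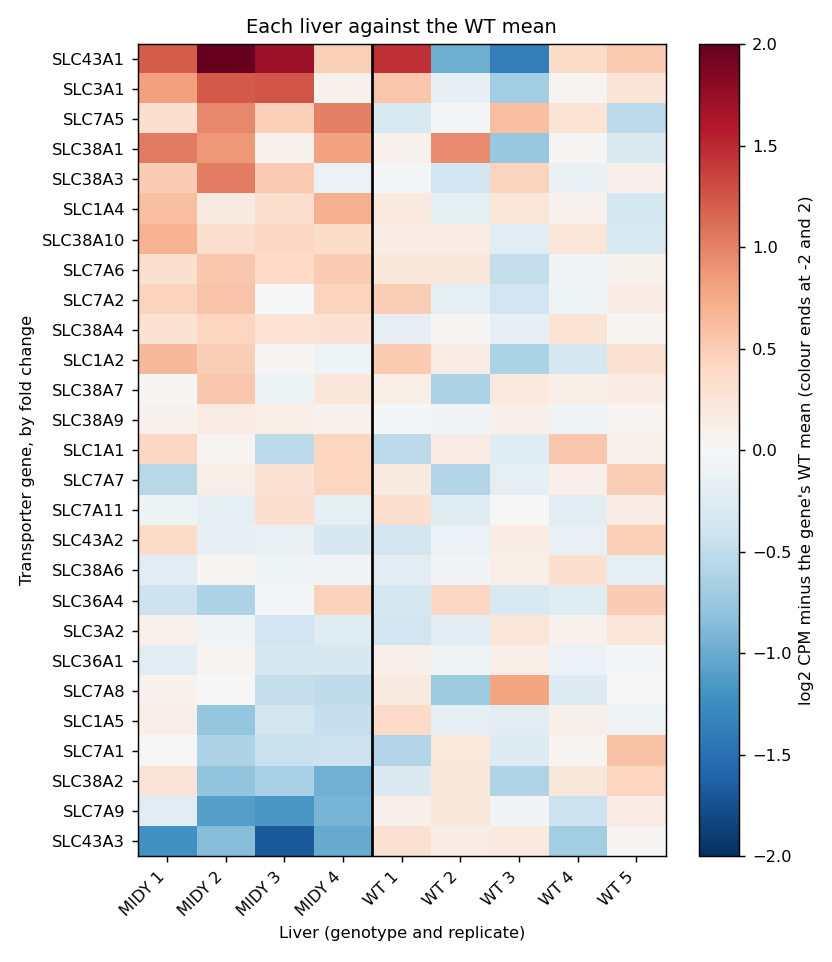
Colour gives the log2 CPM (prior count of 2) of each of 27 transporters in each liver minus that gene's mean over the WT livers, with MIDY livers left of the line and WT livers right of it, and genes ordered by fold change. MIDY livers 2 and 3 are the darkest for SLC3A1 and SLC43A1, and SLC38A2 is above the WT mean in MIDY liver 1 and below it in the other MIDY livers.

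Summed over the 28 members, transporter reads came to 2826 to 3455 CPM in MIDY and 2259 to 2851 CPM in WT livers, which overlapped. Reads of SLC38A4, SLC7A2, SLC38A2 and SLC38A3 made up 88.7 to 89.8% of this sum in MIDY and 88.1 to 89.8% in WT livers. The other 24 members summed to 309.9 to 366 CPM in MIDY and 268 to 321 CPM in WT livers. Of the 12 symbols below the limit of 50 reads, SLC1A6, SLC7A3 and SLC7A13 had 0 reads and the others, SLC36A2 included, 1 to 48, so these transcripts were not measurable at this depth.

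Amino acid and peptide carriers of other families had no call by edgeR either. Of 23 listed, 21 were in the table and 9 passed the filter, with 0 called and a median log2 fold change of 0.15. The 21 summed to 283 to 338 CPM in MIDY and 206 to 268 CPM in WT livers, which did not overlap. SLC15A2, a peptide carrier, averaged 92.9 ± 7.68 CPM in MIDY and 71.4 ± 4.19 CPM in WT livers (SD, n = 4 and 5), with a log2 fold change of 0.38 ± 0.094 (SE; edgeR adjusted p = 0.075). All MIDY livers lay above all WT livers for SLC15A2, as for 3.72% of all genes, while the groups overlapped for SLC16A10 and SLC6A20. SLC16A10 (TAT1), the carrier of aromatic amino acids, averaged 24.2 ± 1.92 CPM in MIDY and 16.7 ± 3.04 CPM in WT livers (SD, n = 4 and 5) and had a log2 fold change of 0.53 ± 0.13 (SE; edgeR adjusted p = 0.0798). SLC6A20, a proline carrier, averaged 154 ± 25.98 CPM in MIDY and 109 ± 24.7 CPM in WT livers (SD, n = 4 and 5) (log2 fold change 0.50 ± 0.17, SE; edgeR adjusted p = 0.175). These 3 were the ones of the 9 with an unadjusted p below 0.05, where all genes gave 16.1%. DESeq2 called 2 of them higher, SLC15A2 and SLC16A10, beside 2.52% of all genes. limma voom called 1, SLC15A2, beside 1.62% of all genes in either direction. SLC6A15, SLC6A18 and SLC17A6 had 0 reads.

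Among 24 genes of the ATF4 response other than carriers, 22 were tested and 0 called, with a median log2 fold change of -0.047. PPP1R15A, a regulatory subunit of the phosphatase that acts on eIF2 alpha, had the smallest p of the list, at 4.62 ± 0.802 CPM in MIDY and 7.66 ± 1.30 CPM in WT livers (SD, n = 4 and 5) (log2 fold change -0.73 ± 0.18, SE; edgeR adjusted p = 0.0701). SHMT2, of mitochondrial serine metabolism, and PSAT1, of serine synthesis, had log2 fold changes of 0.44 ± 0.18 and -0.28 ± 0.12 (SE; edgeR adjusted p = 0.267 and 0.268). Of 29 genes of lysosomal amino acid sensing, 28 were tested and 0 called, with a median of -0.057. The smallest p values belonged to the kinase MTOR (0.29 ± 0.093), FNIP2, a partner of folliculin (-0.28 ± 0.10), and SEC13, of the GATOR2 complex (0.31 ± 0.13, log2 fold change ± SE; edgeR adjusted p = 0.154, 0.204 and 0.252). At an unadjusted p below 0.05 the ATF4 list held 4 genes, 1 above 0 and 3 below, and the sensing list 7, 4 above 0 and 3 below. Over all genes 16.1% had such a p. DESeq2 and limma voom each called 1 gene of the ATF4 list, PPP1R15A, and 0 of the sensing list, beside 4.53% and 1.62% of all genes.

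Several genes of amino acid breakdown and urea synthesis, taken from a list of cell type markers, were called higher by edgeR. Of 12 markers of hepatocytes near the portal vein, which hold the enzymes of urea synthesis and of serine, histidine and glutamine breakdown, 11 were tested, and edgeR called 5 higher (GLS2, ASS1, HAL, SDS and ARG1), beside 0.816% of all genes, and 0 lower. limma voom called the same 5, beside 1.62% of all genes in either direction. DESeq2 called these and CPS1 higher and ALDH1B1 lower, beside 2.52% and 2.01% of all genes. ALDH1B1, a mitochondrial aldehyde dehydrogenase, and SFRP5, a secreted Wnt antagonist, had log2 fold changes below 0, of -0.78 ± 0.24 and -0.57 ± 0.31 (SE; edgeR adjusted p = 0.142 and 0.396), and the median of the list was 0.57. GLS2, the liver glutaminase, averaged 203 ± 22.5 CPM in MIDY and 127 ± 5.77 CPM in WT livers (SD, n = 4 and 5) with a log2 fold change of 0.68 ± 0.10, while ASS1, of the urea cycle, was at 0.81 ± 0.13 (log2 ± SE; edgeR adjusted p = 0.0114 and 0.0144). The difference between the carriers and these enzymes was not tested.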

How the data were processed

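Liver RNA of 4 MIDY and 5 WT pigs was sequenced, 1 library per animal, and grouped by the genotype in the labels. Per the submitters' processing notes, STAR, HTSeq and DESeq2 were used on build Sscrofa11.1; no versions or strand setting are stated there. The deposited table holds unnormalized read counts for each gene symbol, with 0 columns left unused. The test was edgeR 4.0.16 under R 4.3.3 (filterByExpr on group, TMM, robust quasi-likelihood), and p-values were adjusted over all 14100 genes tested, of which the transporters' rows are given. Intervals are the log2 fold change ± SE times the t quantile of the fit's degrees of freedom. Gene positions come from the RefSeq table of Sscrofa11.1, in which all 29837 symbols matched; it gives no strand or transcript length. Alternatives were RLE factors, total counts, the 10 most abundant genes taken out, no filter or a stricter one (1 CPM in 4 libraries), DESeq2 1.42.0, limma 3.58.1 voom with sample weights, and leaving out libraries. Counts of groups that do not overlap under other scalings were added after seeing the data. The code was checked on counts simulated from the fitted edgeR model. That check does not measure the power to call changes smaller than those simulated. The transporters and lists were chosen with earlier results of these data known. Transporters with known roles in liver or lysosome, or as heavy or light chains, and those whose groups do not overlap, are given in every liver, and the 3 genes with the smallest p in each carrier, ATF4 and sensing list. Single livers of 1 animal each are the replicates; litter and day are not used here.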

Additional observations from a re-analysis of the deposited data

Results flagged for a closer look

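In 54 groups of 4 or 5 livers, 1 per transporter and genotype, 4 livers stood far from the others of their group, and chance alone gives such a gap in about 1 in 20 groups. SLC38A10 was 25.5 CPM in MIDY liver 1, where the other MIDY livers lay between 20.1 and 20.8 CPM. SLC38A4 was 1408 CPM in MIDY liver 2, against 1275 to 1289 CPM in the other MIDY livers. SLC7A11 was 44.3 CPM in MIDY liver 3, against 31.1 to 33.3 CPM in the others. SLC38A7 was 3.10 CPM in WT liver 2, against 5.35 to 5.59 CPM in the other WT livers. WT liver 2 is also the library that stood apart on the second principal component. In all 4 transcripts the fitted value kept its sign without the liver named, and none was called.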

How the results depend on the processing

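The count of 0 transporters called by edgeR was the same in the 5 other edgeR settings with all livers, in limma voom and in the 10 fits that left out livers. With DESeq2 it was 1 higher (SLC3A1) and 2 lower (SLC7A9 and SLC43A3). The cause was not tested. Over all genes the 165 calls became 639 with DESeq2, 66 without WT livers 1 and 2 together, and 38 to 259 with single livers left out (38 without MIDY liver 2, 259 without WT liver 1). The median log2 fold change of the transporters was 0.0081 to 0.13 with single livers left out and -0.011 without WT livers 1 and 2. The number of transporters whose groups do not overlap was 4 with RLE factors and 2 with total counts alone. Of 459 fitted transporter values under the alternatives, 442 kept direction and side of the threshold, 3 passed it (DESeq2) and 14 changed sign, all in transporters near 0. With limma voom SLC1A1 was -0.12 and SLC7A11 0.033. Without WT livers 1 and 2, SLC1A1 was -0.022 and SLC7A7 -0.053. With single livers left out the values ran from -0.024 to 0.27 for SLC1A1, -0.24 to 0.067 for SLC43A2, -0.17 to 0.044 for SLC7A11 and -0.055 to 0.24 for SLC7A7. A count limit of 100 in place of 50 left 27 members. No paired analysis was possible because the labels give no number that pairs a MIDY with a WT animal. Depth limits the transporters with few reads, among them SLC43A3, SLC7A6, SLC7A9, SLC43A1, SLC7A5 and SLC1A5, which held 4 to 86 reads per library.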
